A study of Rattus norvegicus with 16 samples.

Results

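The genes of glycolysis and of the response to low oxygen were followed in the renal transcriptome of diabetic and sinomenine-treated rats. A list of 36 gene names was looked up in the gene name column of the expression table, 23 for glycolysis and the handling of its products and 13 for the hypoxia response. The table holds 35849 genes, and 34 of the 36 names had a row, 22 of glycolysis and 12 of the hypoxia response. No row carried the name Gapdh or Car9. Of the 34 members, 33 had enough counts to be tested. Epo was removed by the filter on low counts in every comparison.

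Kidney RNA of 16 male Sprague Dawley rats was sequenced, 4 rats in each of 4 groups. All rats were 6 to 8 weeks old at the start. Normal rats received buffer and a normal diet. DN rats (diabetic nephropathy) received streptozotocin, a toxin of pancreatic beta cells, at 45 mg/kg together with a diet rich in glucose and fat, and were kept in the study when blood glucose was over 16.7 mmol/L. SIN (20 mg/kg) rats and SIN (40 mg/kg) rats were made diabetic in the same way and fed the same diet. They were then given sinomenine, a plant alkaloid, daily by gavage at 20 or 40 mg/kg for 8 weeks. The DN rats were given vehicle instead. Every group given streptozotocin also had the changed diet, and the normal rats had neither, so the toxin and the diet cannot be told apart. No group received sinomenine without streptozotocin, and its effect in healthy rats was not measured. The labels give the rats of a group as separate samples and say nothing further of litters or cages. Library numbers were consecutive inside each group, and therefore the condition and any batch in library preparation cannot be told apart.

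Glycolysis splits glucose into pyruvate in the cytosol. Hexokinase traps glucose in the cell, phosphofructokinase commits it to the pathway, aldolase cuts the sugar, and enolase and pyruvate kinase finish the chain, after which lactate dehydrogenase interconverts pyruvate and lactate and the monocarboxylate transporters carry lactate across the membrane. The hypoxia-inducible factors HIF-1 alpha and HIF-2 alpha are kept low by prolyl hydroxylases while oxygen is present, and when oxygen falls they bind DNA with a constitutive partner and raise glycolytic enzymes, angiogenic factors and their own hydroxylases. The renal cortex, rich in proximal tubules, burns fatty acids and lactate and makes glucose, whereas the poorly oxygenated inner medulla lives mainly on glycolysis. HIF-1 alpha is controlled chiefly through protein stability, which RNA does not measure.

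Depth lay between 19616312 and 25217030 estimated counts a rat, and levels are given in CPM, in which the counts of every rat are divided by its library size after TMM correction over the 16 rats. Proximal tubule markers were high in every rat, at 7479 to 13790 summed CPM over 8 genes, as a kidney sample should show. The lowest sum was that of DN rat 1 and the highest that of normal rat 1. Markers of the inner medulla (Slc14a2, Aqp4 and Bdkrb2) differed widely between rats of a group. Their summed CPM was 11.1, 52.0, 122 and 84.5 in normal rats 1 to 4, 216.3, 175.6, 78.2 and 20.2 in DN rats 1 to 4, 89.2, 217.9, 130.9 and 205.5 in SIN (20 mg/kg) rats 1 to 4, and 64.1, 172.8, 214.9 and 247.2 in SIN (40 mg/kg) rats 1 to 4. None of the 3 markers was at 0 in any rat. Collecting duct principal cell markers also varied, at 292.1 to 909.5 summed CPM over 4 genes in the normal rats and 618.0 to 1763 in the DN rats. Both sums were lowest in normal rat 1 and DN rat 4 of their groups. The collecting duct sum was highest in normal rat 2 and DN rat 2, the inner medulla sum in normal rat 3 and DN rat 1. Scnn1g, 1 of the 4 genes, hardly varied, at 36.6 to 39.4 CPM in the normal rats and 33.7 to 41.1 CPM in the DN rats. DN rat 3 stood apart in muscle markers (74.1 summed CPM over 5 genes, against 11.4 to 21.9 in the other 15 rats) and in urothelium markers (55.7 over 4 genes, against 0.556 to 24.96). Its muscle sum was mostly Des, at 68.8 CPM. Acta1 (4.16 CPM) and Ckm (0.537 CPM) were also highest in that rat, while Mylpf (0.582 CPM) and Myh7 (0.0895 CPM) were not. In whole tissue, fewer cells of a type and less RNA per cell cannot be told apart.

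Per base of gene length, the level of the members differed by orders of magnitude. On the TPM scale (counts divided by the gene lengths in the table and scaled to a common sum), the mean over 16 rats was 1282 for Aldoa, 1220 for Eno1, 1119 for Ndrg1 and 1115 for Ldhb. At the other end stood Aldoc at 2.61 TPM, Hk3 at 1.67, Hk2 at 1.53 and Epo at 0.327. Hexokinase and lactate dehydrogenase each had one main form in these kidneys. Hk1 held 92.8% ± 5.20 (SD, n = 4) of the hexokinase level in the normal rats and 96.4% ± 1.56 in the DN rats. Ldhb, the heart-type subunit of lactate dehydrogenase, held 77.9% ± 1.80 in the normal rats and 77.6% ± 3.83 in the DN rats, and Ldha held the rest. Pyruvate kinase showed a wider shift. Pkm held 49.0% ± 3.88 of the level that it shared with Pklr, the liver and proximal tubule form, in the normal rats, and 72.9% ± 10.5 in the DN rats, 73.3% ± 6.42 in the SIN (20 mg/kg) rats and 72.8% ± 6.08 in the SIN (40 mg/kg) rats. The normal rats reached at most 54.1% and the lowest diabetic rat was at 59.5%, so the ranges did not overlap.

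**Figure D1:**
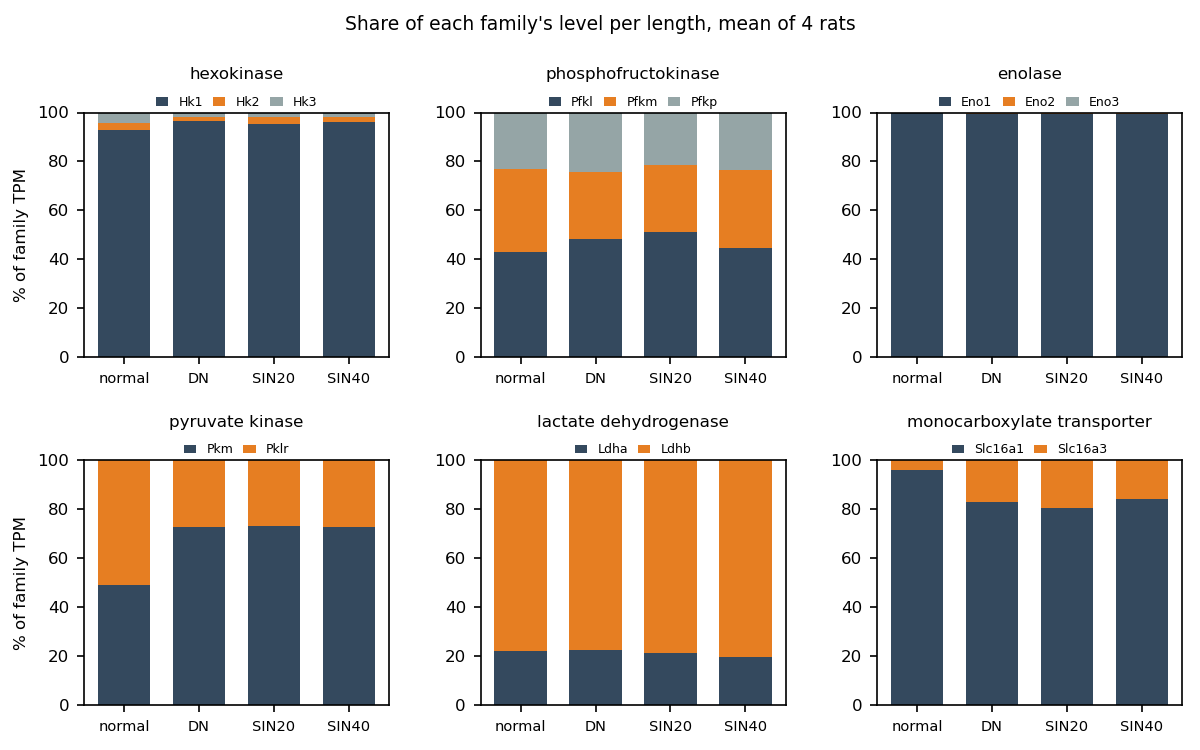
Mean share of each family member in its family's level per length (TPM, percent), by group, 4 rats a bar. The bars of pyruvate kinase show Pkm at 49.0% in the normal group and near 73% in the other groups, while the bars of lactate dehydrogenase stay near 78% Ldhb in the normal and DN groups.

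The first comparison asks what the diabetic model changed. Of the 33 members tested, 9 passed an adjusted p under 0.05 in DN over normal by edgeR's quasi-likelihood test, against 19.5% of all 15775 genes tested. Higher in the DN rats were Aldoa, Aldoc, Egln3, Eno2, Ldha, Ldhb and Pfkl (7 of 33, beside 8.74% of all genes), and 2 were lower, Slc16a1 and Hif1a, beside 10.8% of all genes. When an absolute log2 fold change of 1 or more was required too, 4 members passed (Aldoc, Egln3, Eno2 and Slc16a1), beside 3.8% of all genes. The groups did not overlap for 8 members, beside 24.3% of all genes. The median log2 fold change was 0.26 over 22 glycolysis members and -0.01 over 11 hypoxia members, and 0.002 over all genes. The number of members that passed depended on single rats: it was 3 without normal rat 3 (Aldoa, Aldoc and Slc16a1), 4 without normal rat 1, 4 without normal rat 4 and 5 without DN rat 1. Aldoa, Aldoc and Slc16a1 passed in all 8 fits that left out 1 rat.

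**Figure D2:**
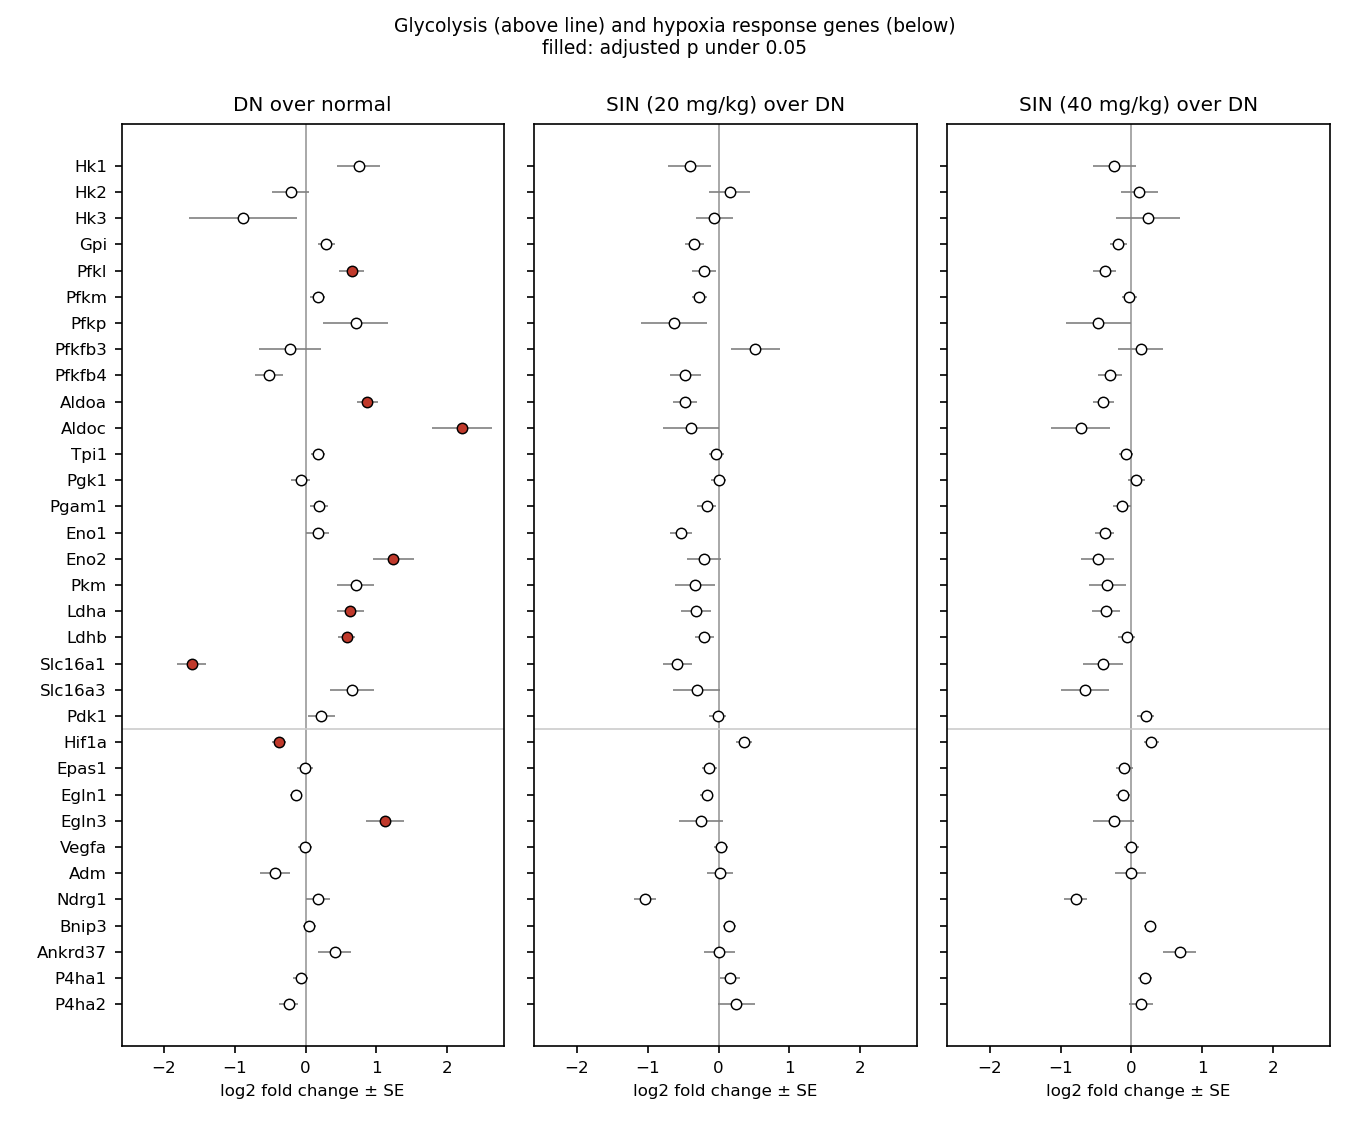
Log2 fold change with its standard error for the 33 members tested in 3 comparisons, with glycolysis genes above the grey line and hypoxia response genes below it. Filled points have an adjusted p under 0.05, of which there are 9 in DN over normal and 0 in either comparison of SIN with DN.

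Slc16a1, which encodes the monocarboxylate transporter MCT1 for lactate, pyruvate and ketone bodies, showed the clearest separation. It was at 249.9, 206.5, 176.4 and 159.1 CPM in normal rats 1 to 4 and at 48.0, 57.5, 67.6 and 84.4 CPM in DN rats 1 to 4. Every DN rat lay below every normal rat, and Slc16a1 fell by 1.61 on the log2 scale (SE 0.20, adjusted p = 0.003238). The other monocarboxylate transporter on the list, Slc16a3 (MCT4, which exports lactate from glycolytic cells), was at 5.73 to 8.81 CPM in the normal rats and 6.62 to 18.4 CPM in the DN rats, which overlapped, with a log2 fold change of 0.65 (SE 0.31, adjusted p = 0.1621). Per length, the level of Slc16a1 was 25.7 ± 9.28 (SD, n = 4) times that of Slc16a3 in the normal rats and 6.23 ± 3.34 times in the DN rats.

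Both aldolase members rose. Aldoa, the muscle-type aldolase found in most tissues, was at 837.3, 958.8, 754.3 and 757.5 CPM in normal rats 1 to 4 and at 1850.0, 1642, 1249 and 1295 CPM in DN rats 1 to 4. Aldoa was higher in each DN rat than in any normal rat, with a log2 fold change of 0.87 (SE 0.15, adjusted p = 0.008289). Aldoc, the brain-type aldolase, was at 1.02, 0.871, 0.878 and 0.889 CPM in normal rats 1 to 4 and at 6.82, 5.71, 2.60 and 1.86 CPM in DN rats 1 to 4. Its log2 fold change of 2.21 (SE 0.42, adjusted p = 0.01118) rested on 18 to 22 counts per normal rat and 39 to 154 per DN rat, so the level was low, while the groups stayed apart. DN rats 1 and 2, the pair with the highest summed inner medulla markers in the DN group, held the highest Aldoc values.

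Enolase and phosphofructokinase each had 1 member that rose. Eno2, the neuron-type enolase, was at 2.00, 2.76, 1.93 and 3.91 CPM in normal rats 1 to 4 and at 8.59, 6.98, 5.06 and 4.48 CPM in DN rats 1 to 4. The groups did not overlap, and the log2 fold change was 1.24 (SE 0.29, adjusted p = 0.02199). Eno1, the main enolase, had a log2 fold change of only 0.17 (SE 0.16, adjusted p = 0.4579). Pfkl, the liver-type phosphofructokinase, was at 95.9, 128.8, 99.4 and 80.4 CPM in normal rats 1 to 4 and at 195.5, 183.1, 124.1 and 129.8 CPM in DN rats 1 to 4. Normal rat 2 lay above DN rat 3, so the groups overlapped, and the log2 fold change was 0.65 (SE 0.18, adjusted p = 0.03706). The Eno2 call held in 4 of 8 fits that left out 1 rat and that of Pfkl in 3 of 8. Pfkm, the muscle type, stood at 0.17 (adjusted p = 0.2785) and Pfkp, the platelet type, at 0.71 (SE 0.46, adjusted p = 0.2876).

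At the lactate step both subunits rose. Ldha, the muscle-type subunit, was at 242.1, 278.4, 264.3 and 245.4 CPM in normal rats 1 to 4 and at 546.4, 448.3, 294.4 and 306.0 CPM in DN rats 1 to 4. The lowest DN rat was above the highest normal rat, and the log2 fold change was 0.63 (SE 0.19, adjusted p = 0.04284). Ldhb was at 810.0, 851.8, 693.1 and 694.1 CPM in normal rats 1 to 4 and at 1339, 1068, 1030.0 and 1097 CPM in DN rats 1 to 4. There was again no overlap, with a log2 fold change of 0.58 (SE 0.12, adjusted p = 0.01632). The Ldha call held in 2 of 8 fits that left out 1 rat and that of Ldhb in 6 of 8.

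Pkm, the pyruvate kinase of most tissues, did not pass by edgeR's quasi-likelihood test. It was at 243.2, 338.7, 325.6 and 277.8 CPM in normal rats 1 to 4 and at 737.0, 545.6, 353.8 and 297.4 CPM in DN rats 1 to 4, and DN rat 4 lay inside the normal range. Its log2 fold change was 0.71 (SE 0.26, adjusted p = 0.07876), and without DN rat 4 it was 0.88 with a call. Some other fits of all rats called it, with an adjusted p of 0.02162 by DESeq2, 0.04358 by edgeR's exact test and 0.04963 when all 16 rats were fitted together. The quasi-likelihood fit with the replicate number as a block did not (adjusted p = 0.1525). Of the 8 fits that left out 1 rat, only the 1 without DN rat 4 called it. Hk1, the main hexokinase, was spread in the same manner, at 66.1 to 104.4 CPM in the normal rats and at 235.8, 181.5, 93.2 and 87.1 CPM in DN rats 1 to 4, with a log2 fold change of 0.75 (SE 0.30, adjusted p = 0.1039). Hk2, the insulin-responsive hexokinase of muscle and fat, was at 5.03, 6.78, 6.54 and 4.89 CPM in normal rats 1 to 4 and at 7.52, 3.69, 5.15 and 3.62 CPM in DN rats 1 to 4, with no ordering between the groups (log2 fold change -0.21, SE 0.26, adjusted p = 0.5819).

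Within the DN group, several members ranked the 4 rats as the summed inner medulla markers did. This order was not particular to the inner medulla: thick ascending limb markers were at 3773, 3723, 2347 and 2087 summed CPM in DN rats 1 to 4. Summed proximal tubule markers were instead lower in DN rats 1 and 2 than in DN rats 3 and 4. They were at 7479, 9629, 12070 and 11750 CPM in DN rats 1 to 4, and DN rat 1 was the lowest of all rats sequenced. The main row of Slc14a2, the urea transporter of the inner medullary collecting duct, was at 149.4, 101.6, 39.01 and 4.05 CPM in DN rats 1 to 4. Hk1, Pkm, Pfkp and Aldoc ranked these rats in the same order, with Pfkp at 144.3, 84.2, 37.8 and 25.9 CPM. Ldha was likewise high in DN rats 1 and 2 and low in DN rats 3 and 4. SIN rats with as much summed inner medulla marker CPM did not reach the values of DN rat 1. Hk1 and Pfkp were at 137.0 and 57.0 CPM in SIN (40 mg/kg) rat 4 (247.2 summed marker CPM). In SIN (20 mg/kg) rat 2 (217.9) they were at 133.6 and 62.8 CPM, beside 235.8 and 144.3 CPM in DN rat 1 (216.3). Slc16a1 ran the other way, lowest in DN rat 1 and highest in DN rat 4. It was highest of all in normal rat 1, the rat with the lowest summed inner medulla markers. An alternative, chosen after seeing the data, left out the rat of each group lowest in the summed inner medulla markers, normal rat 1 and DN rat 4. In it 4 members passed, namely Aldoa, Aldoc, Ldhb and Slc16a1. The part of the inner medulla, or of any other kidney segment, in these results, those 4 included, was not tested.

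**Figure D3:**
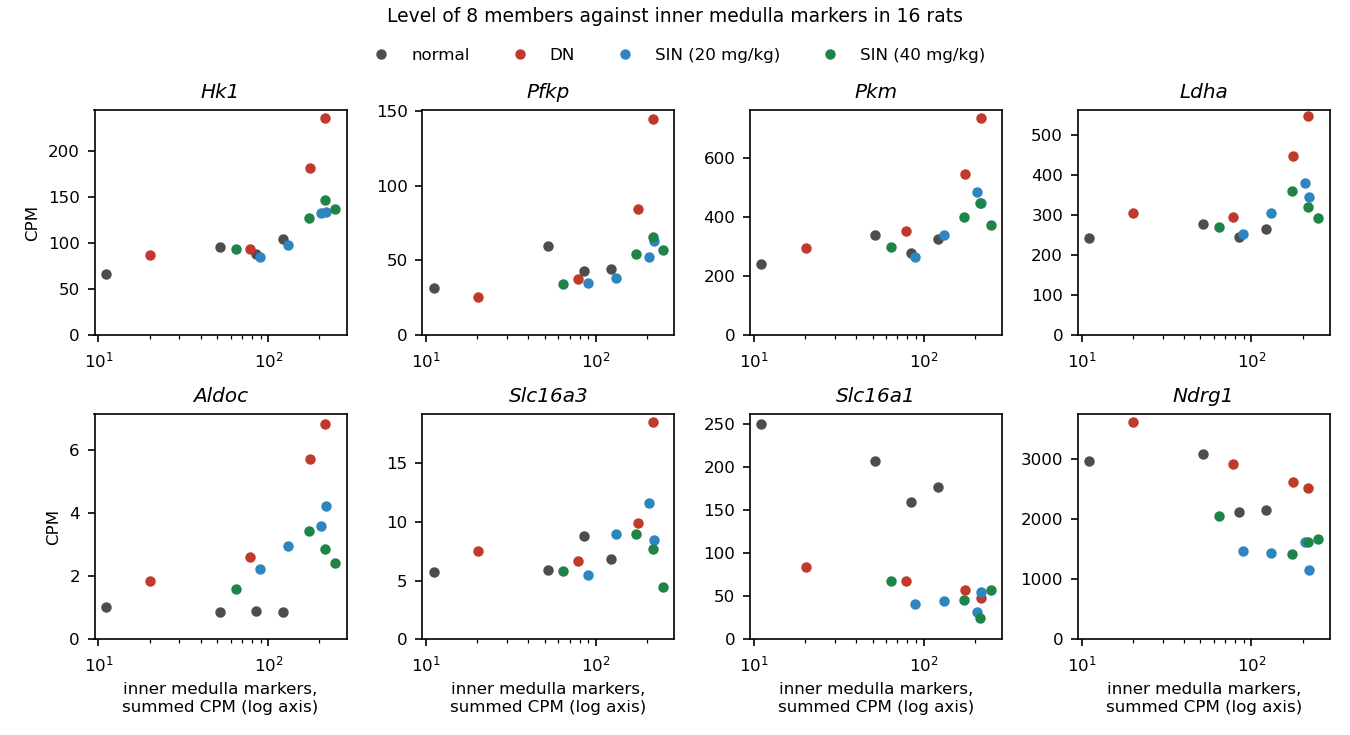
CPM of 8 members against the summed CPM of 3 inner medulla markers (log axis) in 16 rats, coloured by group. Hk1, Pfkp and Pkm are highest in DN rats 1 and 2, at 216.3 and 175.6 summed marker CPM. The SIN rats, at up to 247.2 summed marker CPM, lie below those rats in the same genes. Slc16a1 is at 159.1 CPM or more in the 4 normal rats and at 84.4 CPM or less in every other rat.

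Among the oxygen sensors, Hif1a, which encodes HIF-1 alpha, fell in the DN rats. It was at 90.3, 82.2, 93.7 and 84.4 CPM in normal rats 1 to 4 and at 60.8, 76.0, 72.9 and 60.8 CPM in DN rats 1 to 4. Each DN rat was below all normal rats, and Hif1a fell by 0.37 on the log2 scale (SE 0.10, adjusted p = 0.03207), a call that held in 3 of 8 fits that left out 1 rat. Epas1, which encodes HIF-2 alpha, was at 265.9, 266.0, 226.7 and 239.8 CPM in normal rats 1 to 4 and at 219.8, 229.1, 247.7 and 288.9 CPM in DN rats 1 to 4, a log2 fold change of -0.01 (SE 0.11, adjusted p = 0.9437). Per length, the level of Epas1 was 4.33 ± 0.512 (SD, n = 4) times that of Hif1a in the normal rats and 5.60 ± 1.13 times in the DN rats.

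The hydroxylases that mark HIF for destruction differed from each other. Egln3 (PHD3), itself a HIF target, was at 6.98, 11.5, 10.45 and 12.99 CPM in normal rats 1 to 4 and at 35.9, 17.9, 19.6 and 17.3 CPM in DN rats 1 to 4. All DN rats were higher than all normal rats, with a log2 fold change of 1.12 (SE 0.27, adjusted p = 0.02272), which was 0.81 without DN rat 1. The Egln3 call held in 5 of 8 fits that left out 1 rat. Egln1 (PHD2), the main oxygen sensor, had a log2 fold change of -0.14 (SE 0.08, adjusted p = 0.2584).

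Of the secreted HIF targets among the members, Vegfa and Adm did not pass and Epo could not be tested. Vegfa, the endothelial growth factor, was at 118.1, 138.2, 121.9 and 110.0 CPM in normal rats 1 to 4 and at 131.1, 113.0, 123.7 and 114.1 CPM in DN rats 1 to 4, with a log2 fold change of -0.01 (SE 0.10, adjusted p = 0.9301). Adm, which encodes the vasodilator peptide adrenomedullin, was at 5.97 to 9.36 CPM in the normal rats and 4.30 to 6.52 CPM in the DN rats (log2 fold change -0.43, SE 0.21, adjusted p = 0.1688). Epo, the hormone of red cell production, had 7, 2, 4 and 5 counts in normal rats 1 to 4, 10, 4, 2 and 6 in DN rats 1 to 4, 5, 17, 6 and 10 in SIN (20 mg/kg) rats 1 to 4, and 6, 8, 6 and 6 in SIN (40 mg/kg) rats 1 to 4, too few to show a difference at this depth. The remaining hypoxia members, Ndrg1, Bnip3, Ankrd37, P4ha1 and P4ha2, lay between -0.24 and 0.41 in log2 fold change with adjusted p from 0.2178 to 0.7349.

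**Figure D4:**
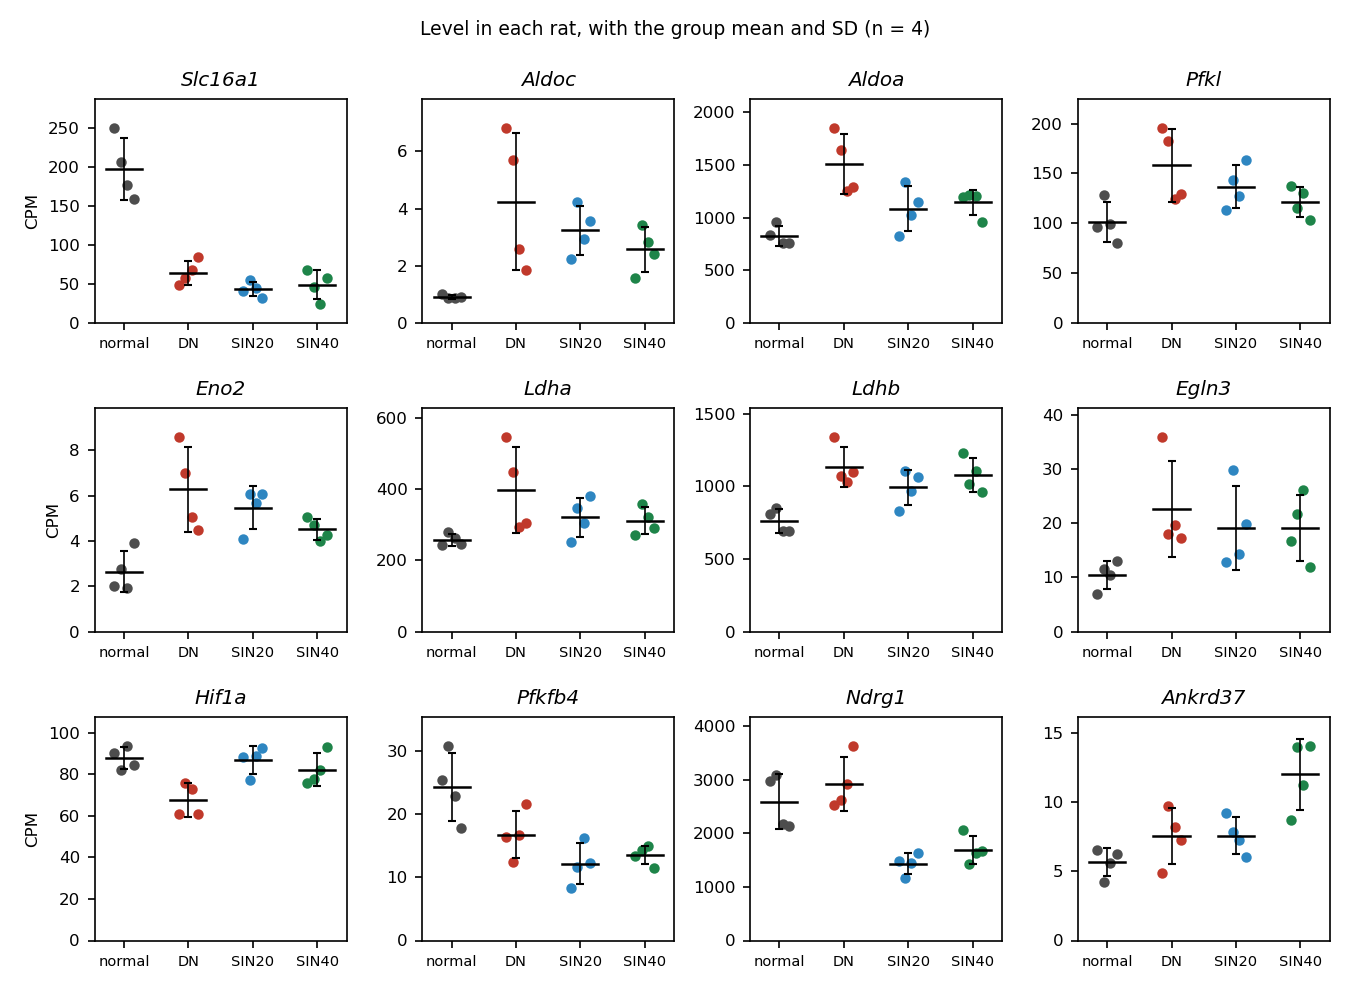
CPM of 12 members in each rat, with the group mean (line) and SD (bar), n = 4; SIN20 stands for SIN (20 mg/kg), SIN40 for SIN (40 mg/kg). Slc16a1 falls from a mean of 198.0 CPM in the normal group to 64.4 in the DN group, and Ndrg1 is at 2130.0 CPM or more in the normal and DN groups and at 2055 or less in the SIN groups.

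The promoters of these genes are shown because HIF recognises a short core sequence. The letters ACGTG were searched on both strands in the 250 bases before the transcription start given by RefSeq for assembly GRCr8, where CACGTG counts on each strand. They occurred in 16.6% of 33469 rat promoters. Of the 36 members, 34 had a promoter entry and 30 of them exactly 1, and 13 of those 30 (43.3%) held the letters. The variant GCGTG, searched likewise, occurred in 25.9% of all promoters and in 15 of the 30. The shares of all promoters were not limited to genes with 1 entry, and base composition was not matched. Whether the members held more matches than comparable promoters was therefore not tested. These matches are descriptions of sequence, and no binding was measured. Windows from the promoters of 6 members with 1 entry that held the letters and passed in a comparison are printed 5′ to 3′ on the strand of the gene, with ACGTG or its complement in capitals.

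Slc16a1 (chr2:194812415-194812479, + strand): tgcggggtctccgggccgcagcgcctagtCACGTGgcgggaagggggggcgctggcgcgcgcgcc
Aldoc (chr10:63715483-63715543, + strand): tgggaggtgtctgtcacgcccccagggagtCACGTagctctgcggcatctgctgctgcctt
Eno2 (chr4:159267325-159267389, - strand): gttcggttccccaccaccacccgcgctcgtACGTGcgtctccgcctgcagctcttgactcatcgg
Ldha (chr1:106507989-106508053, + strand): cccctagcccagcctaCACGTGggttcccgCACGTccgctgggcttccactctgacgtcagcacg
Hif1a (chr6:98359704-98359768, + strand): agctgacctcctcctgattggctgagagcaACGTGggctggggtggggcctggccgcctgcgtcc
Ankrd37 (chr16:53001455-53001506, + strand): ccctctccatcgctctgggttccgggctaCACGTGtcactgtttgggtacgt

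Within these windows Slc16a1, Ldha and Ankrd37 hold the palindrome CACGTG, Ldha with a further match beside it, while the other windows hold a single match. The members with a match did not share a direction: Aldoc, Eno2 and Ldha rose in the DN rats, whereas Slc16a1 and Hif1a fell. Pfkl, Ldhb and Egln3, which also rose, had no ACGTG in these 250 bases, and Aldoa has several promoter entries. Of the variant GCGTG, Pfkl held 2 matches, Ldhb 1 and Egln3 0.

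The second question is whether sinomenine moved these genes in diabetic rats. Both doses were compared with the same 4 DN rats that entered DN over normal, so the comparisons are not independent of each other. No member passed an adjusted p under 0.05 at 20 mg/kg, beside 0% of all genes (0 of 15724), nor at 40 mg/kg, beside 0% (0 of 15530), by edgeR's quasi-likelihood test. The smallest adjusted p of any gene was 0.05851 at 20 mg/kg and 0.14 at 40 mg/kg. DESeq2 called 2 members at 20 mg/kg (Ndrg1 and Eno1) and 1 at 40 mg/kg (Ndrg1), among 221 and 436 genes in all, and edgeR's exact test called Ndrg1 at both doses. Median log2 fold changes over the 22 glycolysis members were -0.29 and -0.28, with 20 and 17 of them below 0, while over all genes the medians were -0.007 and 0.007. Of all genes, 49.0% were above 0 at 20 mg/kg and 51.0% at 40 mg/kg.

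At an unadjusted p under 0.05, 7 of 33 members stood out at 20 mg/kg, beside 15.4% of all genes. Hif1a was higher, beside 9.2% of all genes, and Aldoa, Eno1, Gpi, Ndrg1, Pfkm and Slc16a1 were lower, beside 6.24%. The groups did not overlap for 3 members (Eno1, Hif1a and Ndrg1), beside 8.99% of all genes. At 40 mg/kg 7 of 33 stood out again, beside 17.1% of all genes, with Ankrd37, Bnip3 and Hif1a higher, beside 9.9%, and Aldoa, Eno1, Ndrg1 and Pfkl lower, beside 7.21%. Here 4 members did not overlap (Aldoa, Bnip3, Eno1 and Ndrg1), beside 10.4% of all genes.

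Ndrg1, a hypoxia- and stress-inducible gene abundant in kidney tubules, had the lowest unadjusted p of the members at both doses. It was at 2970.0, 3090.0, 2163 and 2130.0 CPM in normal rats 1 to 4 and at 2517, 2617, 2915 and 3627 CPM in DN rats 1 to 4. The SIN (20 mg/kg) rats 1 to 4 were at 1481, 1159, 1444 and 1626 CPM, and the SIN (40 mg/kg) rats 1 to 4 at 2055, 1424, 1625 and 1667 CPM. Every SIN rat was below every DN rat and every normal rat. Against DN the log2 fold change was -1.04 (SE 0.16, unadjusted p = 5.753e-05, adjusted p = 0.1412) at 20 mg/kg and -0.79 (SE 0.16, unadjusted p = 0.0005229, adjusted p = 0.1746) at 40 mg/kg. The adjusted p ranged from 9.774e-08 (DESeq2) to 0.5284 (1 rat left out) over the alternatives at 20 mg/kg, and from 0.0002381 (DESeq2) to 0.3918 (replicate block) at 40 mg/kg, so the call turned on the test used. Against normal rats Ndrg1 fell by 0.86 on the log2 scale at 20 mg/kg (SE 0.16, adjusted p = 0.0124), and the value at 40 mg/kg was -0.62 (SE 0.17, adjusted p = 0.05776). No other member separated the SIN rats from both the normal and the DN rats at both doses.

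Hif1a stood at 88.5, 77.2, 89.02 and 92.8 CPM in SIN (20 mg/kg) rats 1 to 4, all above the DN rats. In SIN (40 mg/kg) rats 1 to 4 it stood at 75.7, 77.7, 82.1 and 93.3 CPM, of which 1 lay below the highest DN rat. The log2 fold changes over DN were 0.36 (SE 0.11, adjusted p = 0.2696) and 0.28 (SE 0.11, adjusted p = 0.2511), beside -0.37 in DN over normal, which shares the DN rats. Aldoa was at 826.7, 1336, 1022 and 1145 CPM in SIN (20 mg/kg) rats 1 to 4 and at 1193, 1215, 1207 and 960.8 CPM in SIN (40 mg/kg) rats 1 to 4. Its log2 fold changes over DN were -0.48 (SE 0.17, adjusted p = 0.2858) and -0.40 (SE 0.15, adjusted p = 0.2411), and only the higher dose left no overlap.

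Eno1 was at 1750.0, 1748, 1244 and 1395 CPM in normal rats 1 to 4, 1864, 1572, 1427 and 2017 CPM in DN rats 1 to 4, 923.3, 1338, 1335 and 1196 CPM in SIN (20 mg/kg) rats 1 to 4, and 1406, 1373, 1330.0 and 1167 CPM in SIN (40 mg/kg) rats 1 to 4. All SIN rats lay below all DN rats, with log2 fold changes of -0.53 (SE 0.16, adjusted p = 0.2696) and -0.38 (SE 0.13, adjusted p = 0.2174). Bnip3, a mitophagy receptor induced by HIF, was at 141.5, 122.3, 134.2 and 144.6 CPM in normal rats 1 to 4, 142.5, 129.1, 139.5 and 147.7 CPM in DN rats 1 to 4, 157.4, 154.6, 165.5 and 145.0 CPM in SIN (20 mg/kg) rats 1 to 4, and 164.5, 169.6, 160.7 and 174.9 CPM in SIN (40 mg/kg) rats 1 to 4. The SIN (40 mg/kg) rats were above all DN rats by a small margin, a log2 fold change of 0.26 (SE 0.08, adjusted p = 0.2004).

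Several genes called in DN over normal stayed outside the range of the normal rats under sinomenine. The calls had used the same 4 normal rats, and the share of all genes that stayed outside was not worked out. Slc16a1 was at 41.1, 55.1, 44.6 and 32.3 CPM in SIN (20 mg/kg) rats 1 to 4 and at 67.5, 45.9, 24.3 and 57.2 CPM in SIN (40 mg/kg) rats 1 to 4, still below every normal rat. Aldoc was at 2.24, 4.22, 2.94 and 3.57 CPM, and at 1.58, 3.42, 2.85 and 2.42 CPM, in the same rats, above every normal rat. Eno2, at 4.08, 6.08, 5.67 and 6.07 CPM and at 5.07, 4.69, 4.01 and 4.26 CPM, was also above the normal rats at both doses. Ldhb was at 830.9, 1108, 969.4 and 1062 CPM, and at 1228, 1018, 1108 and 959.5 CPM, and like Aldoa it kept apart from the normal rats at 40 mg/kg only. The Ldha, Pfkl and Egln3 values of the SIN rats overlapped those of the normal rats at both doses. Hk2 was at 7.18, 5.81, 5.98 and 3.43 CPM in SIN (20 mg/kg) rats 1 to 4 and 4.38, 6.28, 5.13 and 5.81 CPM in SIN (40 mg/kg) rats 1 to 4, and Pkm at 266.9, 448.4, 338.8 and 485.0 CPM and 300.4, 401.2, 446.8 and 374.5 CPM, both within the range of the DN rats except for SIN (20 mg/kg) rat 4 in Hk2 and rat 1 in Pkm. Epas1 (202.5 to 274.9 CPM) and Vegfa (98.6 to 136.8 CPM) in the 8 SIN rats overlapped both other groups.

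Compared directly with normal rats, whose values also enter DN over normal, 5 of 33 members passed at 20 mg/kg, beside 6.36% of all genes. Aldoc and Eno2 were higher, beside 2.77%, and Ndrg1, Pfkfb4 and Slc16a1 were lower, beside 3.58%, and 4 of the 5 (all but Ndrg1) had an absolute log2 fold change of 1 or more, beside 2.48%. At 40 mg/kg 5 passed, beside 5.97% of all genes, with Aldoc, Ankrd37 and Ldhb higher, beside 2.28%, and Pfkfb4 and Slc16a1 lower, beside 3.69%, of which 3 reached that fold, beside 2.47%. Slc16a1 fell by 2.20 (SE 0.19, adjusted p = 0.0003128) and 2.03 (SE 0.28, adjusted p = 0.003085) on the log2 scale, and Aldoc rose by 1.82 (SE 0.27, adjusted p = 0.004346) and 1.48 (SE 0.29, adjusted p = 0.01567). The count at 20 mg/kg was 3 (Aldoc, Ndrg1 and Slc16a1) without any one of normal rats 1, 2 or 3 or SIN (20 mg/kg) rats 2 or 4. The count at 40 mg/kg was 3 (Ankrd37, Pfkfb4 and Slc16a1) without normal rat 4 or without SIN (40 mg/kg) rat 2 or 3.

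Pfkfb4, an enzyme that sets the level of the phosphofructokinase activator fructose 2,6-bisphosphate, was at 25.5, 30.9, 23.0 and 17.9 CPM in normal rats 1 to 4 and at 16.4, 12.4, 16.7 and 21.7 CPM in DN rats 1 to 4. In the SIN rats it was at 8.39, 11.7, 16.3 and 12.4 CPM at 20 mg/kg and at 13.4, 14.3, 14.9 and 11.6 CPM at 40 mg/kg, all below the normal rats. It fell by 1.00 (SE 0.22, adjusted p = 0.02362) and 0.84 (SE 0.17, adjusted p = 0.01708) on the log2 scale, while DN over normal gave -0.52 (SE 0.20, adjusted p = 0.09155). Ankrd37, a HIF target of little known function, was at 6.52, 4.26, 5.62 and 6.27 CPM in normal rats 1 to 4, 4.91, 9.76, 8.23 and 7.24 CPM in DN rats 1 to 4, 9.20, 7.83, 7.29 and 6.02 CPM in SIN (20 mg/kg) rats 1 to 4, and 8.71, 14.0, 11.2 and 14.1 CPM in SIN (40 mg/kg) rats 1 to 4. It rose by 1.08 over the normal rats at 40 mg/kg (SE 0.20, adjusted p = 0.01166), and passed in all 8 fits that left out 1 rat.

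Some members kept apart from normal rats without passing, and the share of all genes that did so was not worked out. Adm at 20 mg/kg lay below all normal rats, with a log2 fold change of -0.42 (SE 0.19, adjusted p = 0.2406). Bnip3 was above them at both doses, with log2 fold changes of 0.20 (SE 0.09, adjusted p = 0.2364) and 0.30 (SE 0.08, adjusted p = 0.05934). Egln1 was at 63.5, 71.4, 63.9 and 67.3 CPM in normal rats 1 to 4, 64.9, 61.9, 54.9 and 59.9 CPM in DN rats 1 to 4, 49.0, 56.1, 52.9 and 58.3 CPM in SIN (20 mg/kg) rats 1 to 4, and 58.5, 52.4, 62.6 and 48.6 CPM in SIN (40 mg/kg) rats 1 to 4, with log2 fold changes over normal of -0.30 (SE 0.09, adjusted p = 0.06929) and -0.26 (SE 0.10, adjusted p = 0.147). Pdk1, a kinase that shuts pyruvate out of the mitochondrial cycle, was at 11.6, 18.2, 10.7 and 18.1 CPM in normal rats 1 to 4 and at 20.2, 20.8, 18.6 and 18.6 CPM in SIN (40 mg/kg) rats 1 to 4, a log2 fold change of 0.41 (SE 0.18, adjusted p = 0.2095). The SIN (40 mg/kg) rats were above the normal rats by less than 1 CPM at the nearest pair.

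The doses did not differ in any member by the adjusted p, beside 0.00639% of all genes (1 of 15657). At an unadjusted p under 0.05 there were 2 of 33, beside 4.98% of all genes. Ankrd37 had a log2 fold change of 0.66 (SE 0.19, adjusted p = 0.9614) for 40 over 20 mg/kg. Pfkm was at 76.4, 85.8, 78.3 and 73.7 CPM in normal rats 1 to 4, 105.7, 85.4, 75.8 and 86.0 CPM in DN rats 1 to 4, 64.2, 79.0, 73.8 and 76.7 CPM in SIN (20 mg/kg) rats 1 to 4, and 83.5, 90.7, 89.9 and 81.8 CPM in SIN (40 mg/kg) rats 1 to 4, which did not overlap between the doses (log2 fold change 0.23, SE 0.09, adjusted p = 0.9614).

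Other genes of the same pathways, from lists outside the 36 genes, place these values. Of 14 further glycolysis genes tested in DN over normal, 3 passed, beside 19.5% of all genes, with Pgm1 (phosphoglucomutase, which links glucose to glycogen) higher and Pklr and Pfkfb2 (a further enzyme of fructose 2,6-bisphosphate) lower. Pklr was at 262.9, 321.5, 241.8 and 250.1 CPM in normal rats 1 to 4 and at 121.8, 141.9, 126.6 and 177.3 CPM in DN rats 1 to 4, and fell by 0.92 on the log2 scale (SE 0.14, adjusted p = 0.00598). Of 12 genes of pyruvate entry into mitochondria, 2 passed, both lower, beside 10.8% of all genes lower. Pdk4, a pyruvate dehydrogenase kinase induced by fasting, fell by 1.35 (SE 0.27, adjusted p = 0.01348), and Pdha1, a pyruvate dehydrogenase subunit, fell by 0.53 (SE 0.11, adjusted p = 0.01632).

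Of 33 further hypoxia genes tested, 11 passed, beside 19.5% of all genes, with 5 higher (8.74% of all genes) and 6 lower (10.8%). Angptl4, an inhibitor of lipoprotein lipase, fell by 1.75 (SE 0.21, adjusted p = 0.003238), and Wsb1, a ubiquitin ligase adaptor, fell by 1.52 (SE 0.24, adjusted p = 0.00598). Stc2, a secreted glycoprotein, rose by 1.42 (SE 0.28, adjusted p = 0.01299) and Edn1, the vasoconstrictor endothelin-1, by 1.08 (SE 0.28, adjusted p = 0.02936). Hmox1, the heme-degrading enzyme heme oxygenase 1, had the largest value of this list, 5.64 (SE 1.63, adjusted p = 0.03955), and its size rested on DN rat 1, at 707.3 CPM, while the other DN rats held 5.57 to 11.3 CPM and the normal rats 2.56 to 4.84 CPM. Without that rat its log2 fold change was 1.19 and it still passed. In SIN over DN, 0 genes of the 3 lists passed at either dose by edgeR's quasi-likelihood test. At an unadjusted p under 0.05 there were 1 of 14 for glycolysis, 0 of 12 for pyruvate entry and 4 of 33 for hypoxia at 20 mg/kg, beside 15.4% of all genes, and 1 of 14, 1 of 12 and 10 of 33 at 40 mg/kg, beside 17.1%. Against normal rats, 2 of 14, 2 of 12 and 5 of 34 passed at 20 mg/kg, beside 6.36% of all genes, and 2 of 14, 1 of 12 and 4 of 34 at 40 mg/kg, beside 5.97%. Pklr fell by 1.19 (SE 0.13, adjusted p = 0.000934) and 1.14 (SE 0.13, adjusted p = 0.001124) in these.

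Some reads can fit more than one gene. Estimated counts were not whole numbers in some or all rats for 13 members (Aldoa, Bnip3, Egln1, Eno1, Eno2, Hk1, Ldha, Pdk1, Pfkfb4, Pgk1, Pkm, Slc16a3 and Tpi1). For Egln1, Eno1, Ldha, Pfkfb4, Pgk1, Pkm and Tpi1 no rat had a whole number. The split of reads with copies elsewhere is therefore uncertain for the 13 members. Outside the rule, and chosen after their values were seen, 2 rows named LOC108351137 carry a description as glyceraldehyde-3-phosphate dehydrogenase, the enzyme of the missing Gapdh. The more abundant was at 1966 to 2646 CPM in the normal rats and 2682 to 3525 CPM in the DN rats (log2 fold change 0.44, SE 0.14, adjusted p = 0.04856), a call that held in 2 of 8 fits that left out 1 rat. The other overlapped between the groups, at 405.7 to 487.6 CPM in the normal rats and 260.1 to 916.1 CPM in the DN rats (log2 fold change 0.66, SE 0.31, adjusted p = 0.1588). A row named Ca9, another symbol of carbonic anhydrase 9, had 0 to 7 counts per rat and was not tested.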

How the data were processed

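Kidney mRNA of 16 rats was enriched with oligo(dT) and sequenced on an Illumina platform. The authors used SeqPrep and Sickle for trimming and TopHat for alignment to the rat genome; their processing notes also name Bowtie, RSEM and edgeR. The authors deposited one table of estimated counts per gene, not normalized, in which 74.3% of nonzero values were whole numbers. Values were rounded, and columns were joined to rats by the number at the end of the sample description. The group means of the table equal the means of the columns so joined to within 0.001. The table holds 4 per-rat columns of no sample here and 5 mean columns, which were not used. The origin of its gene length column is not given in the sources used here.

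Counts were tested with edgeR 4.0.16 (quasi-likelihood test, two-sided, TMM, filterByExpr, 8 rats per comparison, 6 comparisons), adjusted by Benjamini-Hochberg over all genes tested, in R 4.3.3 and Python 3.11.15. SE is the absolute log2 fold change divided by the square root of F. P-values measure the spread between the 4 rats of a group, which the labels give as separate samples. Alternatives were DESeq2 1.42.0, edgeR's exact test, RLE factors, no filter, at least 10 counts in every rat, one shared fit of all 16 rats, a block for the replicate number, and each rat left out. The scripts were tested on simulated data. All 36 members may be named; values of every rat are given for members with an adjusted p under 0.05 in DN over normal, for non-overlapping members with an unadjusted p under 0.05 in a SIN comparison, and for Hk2, Ldha, Pkm, Hif1a, Epas1, Vegfa and Epo; other lists give at most their 5 largest changes. The members and lists were chosen with earlier results of these data known. Promoters are from RefSeq (GRCr8), and gene positions were not used.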

Additional observations from a re-analysis of the deposited data

Results flagged for a closer look

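In groups of 4 rats, a rat was marked when its gap to the nearest other rat was a larger share of the range of the group than Dixon's critical value, which chance gives in about 5% of groups. Over 134 groups of member levels with at least 10 counts in 1 rat, 7 were marked, beside 6.7 by chance. Hk3, the hexokinase of leukocytes, was at 16.17 CPM in normal rat 2 and at 1.33 to 1.82 CPM in the other normal rats. Egln3 was at 35.89 CPM in DN rat 1 while the remaining DN rats held 17.3 to 19.6 CPM. Adm was at 9.359 CPM in normal rat 1 and at 5.97 to 6.49 CPM in the others, and Aldoc was at 1.024 CPM in the same rat and at 0.871 to 0.889 CPM in the others. In SIN (40 mg/kg) rats, Aldoa was at 960.8 CPM in rat 4 against 1193 to 1215 CPM, and Pfkfb3 was at 27.61 CPM in rat 1 against 38.02 to 38.14 CPM. Epas1 was at 207.5 CPM in SIN (20 mg/kg) rat 1 against 231.4 to 235.5 CPM. Hmox1, which was added to this check after its values were seen, was at 707.3 CPM in DN rat 1 against 5.57 to 11.3 CPM.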

How the results depend on the processing

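Among the 33 members in DN over normal, no called log2 fold change changed sign under an alternative. Some that were not called did with 1 rat left out: the range was -1.20 to 0.78 for Hk3, -0.49 to 0.20 for Pfkfb3, -0.10 to 0.04 for Epas1, -0.06 to 0.04 for Vegfa, -0.01 to 0.09 for Bnip3 and -0.14 to 0.00 for Pgk1. The value of Hk3 was 0.78 without normal rat 2. The number of members called in DN over normal, 9, was 12 with DESeq2 (Hk1, Gpi and Pkm added), 10 with the exact test of edgeR, 10 when all 16 rats were fitted together, 5 with the replicate number as a block and 4 with normal 1 and DN 4 left out together, and ran from 3 to 10 with 1 rat left out. In SIN (20 mg/kg) over DN, 0 became 2 with DESeq2, 1 by the exact test of edgeR and 1 when all 16 rats were fitted together, and in SIN (40 mg/kg) over DN, 0 became 1 with DESeq2 and 1 with the exact test; both stayed at 0 with 1 rat left out. Between the doses 0 members passed under every alternative run. Against normal rats, 5 became 8 with DESeq2 at 20 mg/kg and ran from 3 to 7 with 1 rat left out, and at 40 mg/kg 5 became 10 with DESeq2, 9 with the exact test and 9 with the replicate block and ran from 3 to 7 with 1 rat left out. The cause of these shifts was not tested. Rats of one number did not deviate together (correlations from -0.303 to 0.311 over genes), so the number is only a name, and in no comparison did more than 3 of 8 rats correlate best with their own number. Depth limits Epo and the row named Ca9, whose counts stay under 20 per rat.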
